A study of Mus musculus with 4 samples.

Results

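The ligands and receptors of the lymphotoxin, LIGHT and TNF network were followed in single cells sorted from mouse pancreatic tumors. The set holds 8 of the 33696 genes in the count tables, picked as the ligands Lta, Ltb, Tnfsf14 and Tnf and the receptors Ltbr, Tnfrsf14, Tnfrsf1a and Tnfrsf1b. Their transcripts were counted as unique molecular identifiers (UMIs), in which each captured RNA molecule is counted once. All 8 genes had counts, from 364 UMIs for Lta to 64987 UMIs for Tnfrsf1b in the cells kept. The tumors grew under the skin of young adult male C57BL/6NHsd mice from KPC cells, a line taken from a mouse pancreatic cancer whose engineered alleles were recombined by Pdx1-Cre, a recombinase active in the pancreas. The 4 groups were untreated tumors, tumors injected once with the STING agonist ADU-S100, tumors of mice given repeated intraperitoneal doses of the agonistic anti-LTβR antibody 4H8, and tumors given both agents (combination). Live CD45+ cells from pooled tumors of a group made 1 library, so that no value here has a replicate and no p-value was computed. All intervals are 95% counting intervals of the UMIs, which do not hold the spread between animals. The model has limits: a single cell line grew outside the pancreas, and a CD45+ sort leaves out most fibroblasts, endothelial cells and tumor cells.

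Lymphotoxin-β, the product of Ltb, forms a membrane-bound trimer with lymphotoxin-α, the product of Lta, and this trimer binds the lymphotoxin-β receptor (LTβR, gene Ltbr). LIGHT (gene Tnfsf14) binds the same receptor and also HVEM (gene Tnfrsf14), whereas TNF and lymphotoxin-α homotrimers bind TNFR1 (gene Tnfrsf1a) and TNFR2 (gene Tnfrsf1b). LTβR signals in stroma and myeloid cells, with the alternative NF-κB pathway among its routes. It is best known for the building of lymph nodes and tertiary lymphoid structures. TNFR1 is present on most cells, and TNFR2 is found mainly on leukocytes.

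Ltb, Tnf and Lta are neighbors on chromosome 17, and their promoters are shown because results on these 3 ligand genes follow. RefSeq sequences of build GRCm38.p6 were found for all 8 genes. The 250 bases before each annotated start are given 5′ to 3′ on the strand of the gene, at chr17:35194257-35194506 (plus strand) for Ltb, chr17:35202008-35202257 (minus strand) for Tnf and chr17:35205352-35205601 (minus strand) for Lta. Capitals mark a match to the NF-κB consensus motif in Ltb and the TATA box TATAAA in Tnf and Lta, searched on both strands.
Ltb: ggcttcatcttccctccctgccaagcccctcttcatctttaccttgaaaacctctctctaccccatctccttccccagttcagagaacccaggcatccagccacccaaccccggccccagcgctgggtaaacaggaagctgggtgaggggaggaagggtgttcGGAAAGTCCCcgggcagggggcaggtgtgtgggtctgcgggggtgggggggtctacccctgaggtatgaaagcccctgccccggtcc
Tnf: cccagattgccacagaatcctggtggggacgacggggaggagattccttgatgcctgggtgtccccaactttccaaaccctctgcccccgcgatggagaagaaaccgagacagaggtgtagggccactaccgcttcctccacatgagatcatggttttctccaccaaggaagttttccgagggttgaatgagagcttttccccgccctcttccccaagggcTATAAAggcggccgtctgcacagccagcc
Lta: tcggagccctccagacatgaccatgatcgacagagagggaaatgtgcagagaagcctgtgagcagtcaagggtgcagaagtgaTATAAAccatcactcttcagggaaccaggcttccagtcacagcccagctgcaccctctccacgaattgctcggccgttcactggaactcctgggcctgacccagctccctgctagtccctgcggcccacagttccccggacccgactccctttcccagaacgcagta
The NF-κB match in Ltb lay 87 bases before the start and was read from the minus strand of the gene. The TATA box of Tnf began 29 bases before its start, and that of Lta 167 bases before its start. The other 5 promoters held neither motif. Among 32851 promoter windows of the same length, 3.9% held the NF-κB consensus and 12.4% held TATAAA, so that these matches are a description of the sequences and of nothing more.

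The libraries kept 7524 untreated, 13444 ADU-S100, 13223 anti-LTβR and 14667 combination cells, with a median of 4616, 3110, 3738 and 2200 UMIs per cell. Pairs of libraries shared 30 to 70 barcodes among their kept cells. Cells were clustered without the 8 genes and named by marker genes, so that T cell, NK cell, B cell, plasma cell, neutrophil, macrophage and monocyte, dendritic cell (DC) and plasmacytoid DC (pDC) stand for cells resembling these types. The macrophage and monocyte class was the most numerous in each library, with 4116, 5945, 7559 and 8774 cells, and neutrophils numbered 494, 5295, 974 and 1293. T cells numbered 1399, 601, 1998 and 1666, and B cells only 6, 8, 140 and 219. A further cluster of 150, 221, 201 and 248 cells had Krt8, Krt18, Krt19 and Msln as markers and is called carcinoma-like, though its cells passed a CD45+ sort. The 4 values in a row are always untreated, ADU-S100, anti-LTβR and combination.

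The name of the carcinoma-like cluster rests on part of its markers. Krt8, an epithelial keratin, had 388, 296, 352 and 412 CPM (UMIs of a gene per 1000000 UMIs summed over the cells of a class in a library), while Cldn4 was at 0 in all 4 libraries and Epcam, Cdh1 and Krt7 reached at most 1.47, 6.61 and 1.47 CPM. Ptprc, which encodes CD45, stood at 27.5, 50.7, 41.9 and 60.3 CPM beside 1427, 1275, 1577 and 1307 CPM in the leukocytes. The fibroblast collagens Col1a1 and Col3a1 stood above the level of Krt8 in the sum, apart from slightly lower values of both in the combination, but in fewer cells. Col1a1 had 798, 630, 787 and 386 CPM, found in 11.3%, 5.88%, 5.47% and 4.84% of cells, and Col3a1 had 861, 920, 423 and 411 CPM, found in 16%, 7.69%, 14.4% and 15.7%, where Krt8 was found in 61.3%, 46.6%, 62.7% and 64.1%. All 6 fibroblast markers summed to between 1119 and 2271 CPM in the cluster and the 8 carcinoma markers to between 763 and 906 CPM.

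Each gene had a class in which its median over the 4 libraries was highest, leaving out mast cells and basophils with their 11 to 30 cells a library. Lta and Ltb led in T cells, Tnfsf14, Tnf, Tnfrsf1a and Tnfrsf1b in neutrophils, and Ltbr and Tnfrsf14 in macrophages and monocytes. The order below the first class was less clear: the 4 values of Ltb in T cells, B cells, NK cells and neutrophils overlapped from each class to the next, and so did those of Tnfrsf14 from macrophages and monocytes to DCs, pDCs and NK cells. Tnfrsf1a was ordered without overlap from neutrophils to macrophages and monocytes to DCs, and Tnfrsf1b in neutrophils lay above every T cell value.

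**Figure D1:**
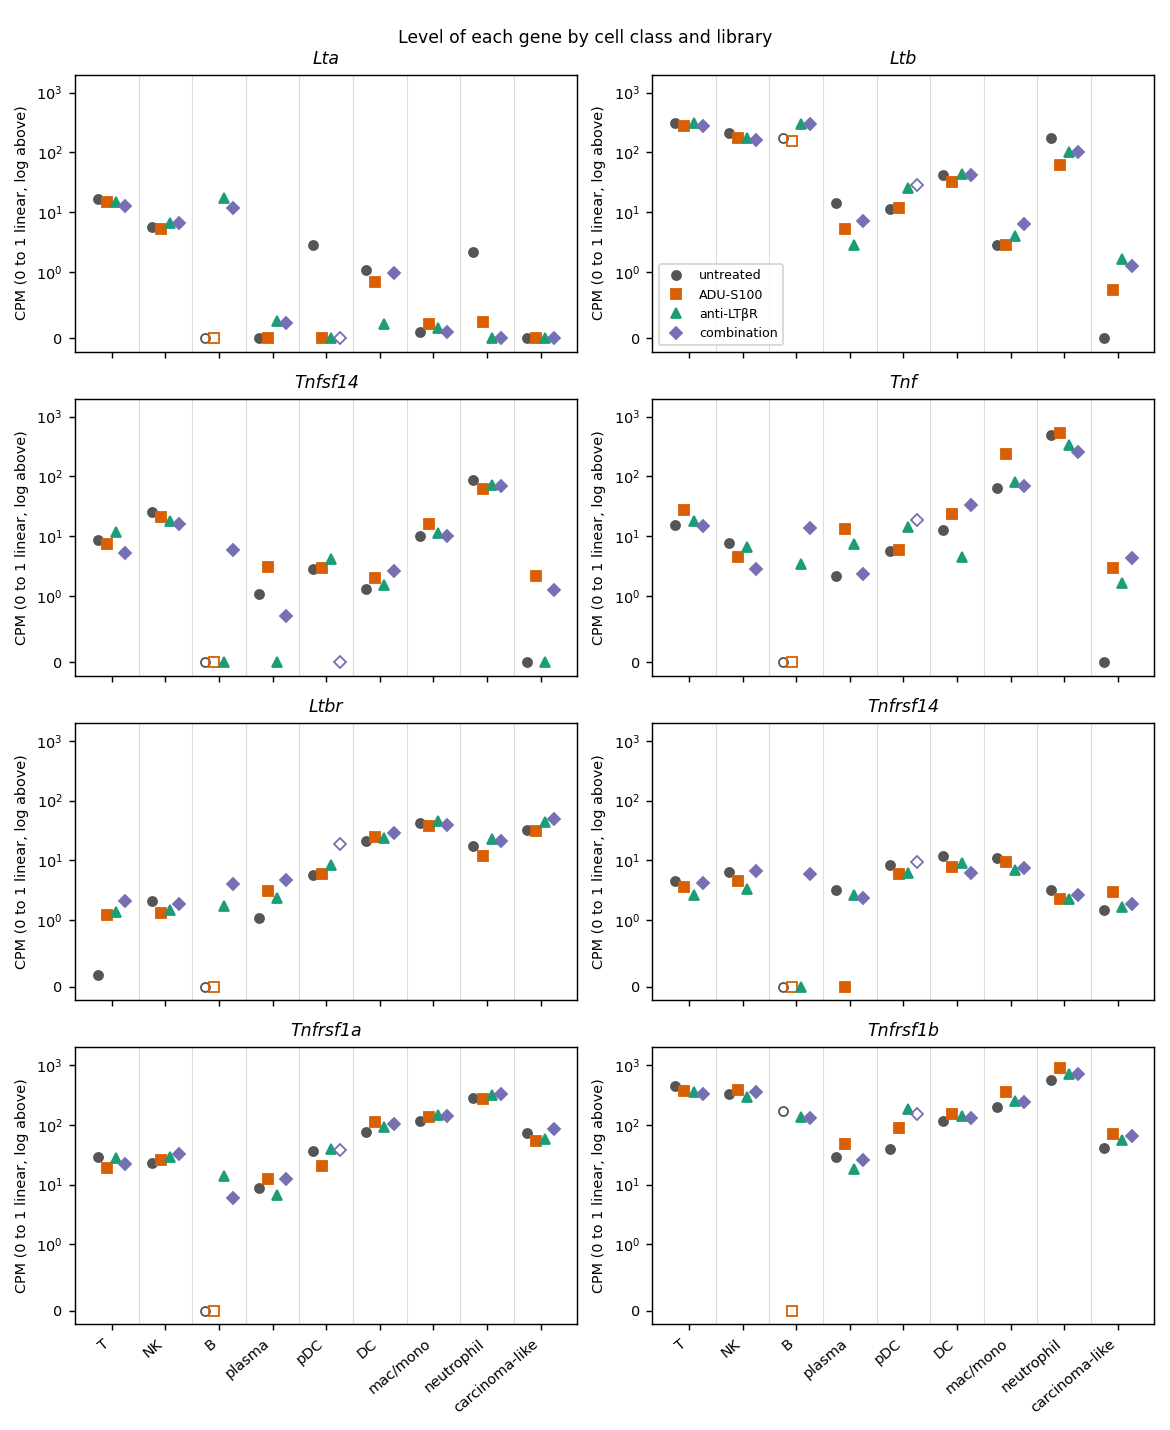
Level of each of the 8 genes (CPM, linear from 0 to 1 and logarithmic above) by cell class, with a point for each library and open points for sums of fewer than 50 cells. Lta was at 0 in the carcinoma-like cluster in all 4 libraries, whereas Ltbr there lay between 31.6 and 49.6 CPM.

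Lymphotoxin-α transcripts were rare and found mostly in T cells. Lta had 92, 37, 94 and 42 UMIs in T cells, or 16.6, 15, 14.6 and 12.7 CPM, and these cells held 82.9%, 60.7%, 72.3% and 67.7% of all its UMIs. The intervals of the 4 T cell levels overlapped. Between 2.22% and 5% of T cells had an Lta UMI, and after each cell was thinned to 1000 UMIs the share was 1.07%, 1.62%, 1.49% and 1.32%, from 9 to 27 cells a library, too few to read an order from.

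Within T cells, Lta was highest in CD4 cells. The CD4 cells, set by Cd4 without Foxp3, had 40.7, 40, 42.8 and 42.9 CPM, from only 12 to 42 UMIs each. With anti-LTβR a single cell held 33.3% of the 42 UMIs, so that the 4 values are not read as a steady level. CD8 cells had 12.7, 13.7, 6.8 and 6.09 CPM, below the CD4 value in each library. NK cells had 5.61, 5.19, 6.53 and 6.54 CPM, with no overlap with the T cell values. B cells had 17.4 CPM (8.37 to 32.1) with anti-LTβR and 11.9 CPM (4.38 to 26) in the combination, from 10 and 6 UMIs. In macrophages and monocytes Lta was between 0.098 and 0.223 CPM, which is 0.614% to 1.49% of the T cell level, where T cell markers stood at 0.128% to 0.34% of theirs. No Lta UMI was seen in the carcinoma-like cluster, where the upper limit of the level lay between 2.03 and 2.74 CPM.

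Lymphotoxin-β was found across lymphocytes. T cells had 315 (301 to 330), 271 (251 to 292), 307 (293 to 321) and 278 (261 to 297) CPM of Ltb. The log2 ratio to untreated was -0.22 with ADU-S100, -0.04 with anti-LTβR and -0.18 in the combination, all under 2-fold. Ltb was detected in 51%, 50.4%, 49% and 35.7% of T cells, and at a depth of 1000 UMIs in 22.5%, 20.9%, 26.4% and 24.6%, so that the low unthinned share of the combination went with its lower depth.

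Regulatory CD4 cells, marked by Foxp3, had the highest Ltb of the T cells in each library except ADU-S100, where γδ T cells had 570 CPM from 26 UMIs. The regulatory cells stood at 640 (564 to 725), 340 (254 to 446), 413 (336 to 502) and 629 (427 to 892) CPM, from 88, 29, 57 and 20 cells. The untreated level lay above those of both single agents, and the combination interval overlapped the other 3. The other CD4 cells had 437, 367, 335 and 326 CPM, and CD8 cells had 243, 239, 262 and 262 CPM with intervals that all overlapped. NK cells had 210, 174, 175 and 163 CPM. B cells had 297 CPM (254 to 345) with anti-LTβR and 300 CPM (254 to 352) in the combination. The untreated and ADU-S100 libraries held too few B cells to set a level, with 5 and 3 Ltb UMIs.

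**Figure D2:**
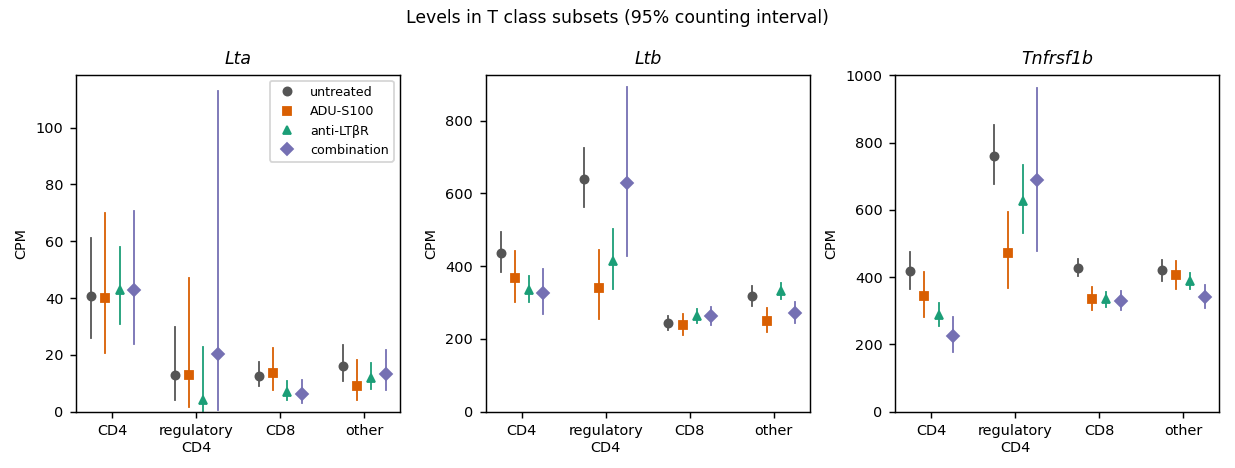
Levels of Lta, Ltb and Tnfrsf1b (CPM, from 0) in subsets of the T cell class, with a point and a 95% counting interval for each library. Lta was highest in CD4 cells, between 40 and 42.9 CPM, with 33.3% of the anti-LTβR UMIs in a single cell. Ltb and Tnfrsf1b were highest in untreated regulatory CD4 cells, at 640 and 760 CPM.

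Neutrophils carried Ltb as well, and here the treatments differed. Neutrophil Ltb was 172 (147 to 201), 62.4 (58.1 to 67), 103 (88.5 to 119) and 103 (87.4 to 120) CPM. The ADU-S100 interval lay below the other 3. A gene was called changed where its ratio was at least 2-fold, its interval left out equality and it had at least 200 UMIs in both libraries together. By this rule Ltb fell with ADU-S100 to 0.361 of the untreated level (0.305 to 0.432), and it was the only 1 of 5 neutrophil members tested that was called, where 6.52% of all genes tested were. T cell markers in neutrophils stood at 0.369% to 1.19% of the T cell level, while Ltb there stood at 54.7%, 23.1%, 33.5% and 37% of it.

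The makeup of the neutrophils moved with this value. Mature neutrophils, marked by Cxcr2 and Retnlg, had 240, 122, 156 and 147 CPM of Ltb, and neutrophils marked by Ccl3 had 48.4, 26.1, 45 and 44.4 CPM. The Ccl3 neutrophils numbered 189 of the 494 untreated neutrophils and 3469 of the 5295 with ADU-S100. Within the mature cells the log2 ratio with ADU-S100 was -0.98 (-1.24 to -0.70), and within the Ccl3 cells it was -0.93 (-1.63 to -0.06), so that neither passed the 2-fold line. The share of mature neutrophils with an Ltb UMI at a depth of 1000 UMIs was 20%, 10.6%, 12.4% and 12.9%.

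Ltb was low in other myeloid cells. DCs had 41.3, 32.4, 42.9 and 41.4 CPM, with most of it in cells resembling conventional type 2 DCs (cDC2) at 73.8, 43.3, 63 and 58.2 CPM. Macrophages and monocytes had 2.78, 2.76, 3.95 and 6.40 CPM, from 82, 124, 160 and 196 UMIs. Ltb in this class rose in the combination to 2.29 times the untreated level (1.77 to 3.02) and to 2.31 times the ADU-S100 level (1.84 to 2.92). With the mean of CPM per cell in place of the sum, the log2 ratio of the combination to untreated was 0.82 and short of 2-fold, beside 1.20 with the sum. The class was spread over different clusters by library: the largest, led by Ly6i and Ccr2, held 633 of 4116 untreated and 2305 of 8774 combination cells, and its Ltb was 3.93 CPM (2.20 to 6.48) and 9.61 CPM (7.33 to 12.4) in these. By subtype, Ltb in the combination and untreated was 3.40 and 1.15 CPM in C1q macrophages (log2 ratio 1.54, 0.59 to 2.59), 7.45 and 5.53 CPM in Chil3 Vcan monocytes (0.42, -0.37 to 1.26) and 7.39 and 3.61 CPM in the remaining clusters (1.02, 0.54 to 1.55), each on fewer than 200 UMIs. The interval in Chil3 Vcan monocytes held equality. As a share of the T cell level this is 0.882%, 1.02%, 1.29% and 2.3%, beside T cell markers at 0.295%, 0.128%, 0.277% and 0.34%, and DC markers stood at 1824, 1508, 1614 and 2046 CPM. The part of these other cells' RNA in the Ltb result was not tested. In the carcinoma-like cluster Ltb was between 0 and 1.65 CPM.

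LIGHT transcripts were highest in neutrophils. Tnfsf14 in neutrophils was 88.8 (70.8 to 110), 60.9 (56.6 to 65.5), 72.9 (60.9 to 86.6) and 69.9 (57.2 to 84.6) CPM. The untreated value lay above the ADU-S100 value, with a log2 ratio of -0.55 (-0.87 to -0.20) that is short of 2-fold. Ccl3 neutrophils had 136, 72.9, 108 and 91.9 CPM, above the mature cells at 62.9, 41.3, 41.1 and 53.3 CPM in each library, the reverse of the order of Ltb.

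Macrophages and monocytes had a lower Tnfsf14 level than neutrophils but more of its UMIs in 3 libraries. Their level was 10.3, 16, 11.5 and 10.3 CPM, highest with ADU-S100 at a log2 ratio of 0.64 (0.44 to 0.84), and they held 63%, 46.7%, 63.3% and 66.4% of its UMIs. NK cells had 25.3, 20.8, 17.8 and 15.9 CPM and T cells 8.64, 7.29, 11.8 and 5.14 CPM. Neutrophil markers in NK cells were at most 0.326% of the neutrophil level, while Tnfsf14 there was 22.7% to 34.1% of it.

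Tnf in macrophages and monocytes had the widest ratio to untreated of the members tested in T cells, neutrophils, macrophages and monocytes and the carcinoma-like cluster. It stood at 63.9 (61.1 to 66.9), 239 (234 to 243), 79.9 (77.1 to 82.7) and 68.0 (65.1 to 71.0) CPM. The ADU-S100 library stood apart from the other 3. Tnf rose with ADU-S100 by 3.73-fold (3.55 to 3.92), and in the combination it was 0.285 of the ADU-S100 level (0.272 to 0.299). It was the only 1 of 7 members tested in macrophages and monocytes that was called with ADU-S100 against untreated, where 5.12% of all genes tested were called. With anti-LTβR none of 7 was called against a background of 1.43%, in the combination 1 of 7 (Ltb) against 1.61%, and between the combination and ADU-S100 2 of 7 (Tnf lower and Ltb higher) against 3.14%.

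Both the number of Tnf-positive macrophages and monocytes and the UMIs in each were higher with ADU-S100. A Tnf UMI was found in 17.9%, 34.6%, 16% and 11.3% of the cells, and at a depth of 1000 UMIs in 4.5%, 13.7%, 5.63% and 5.28%. Positive cells had 2.56, 5.21, 2.68 and 2.1 Tnf UMIs on average. As a share of the neutrophil level, Tnf in this class was 13%, 44.7%, 23.4% and 26.2%, beside neutrophil markers at 0.568%, 1.7%, 0.595% and 0.67%.

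The same comparison was called in each macrophage and monocyte subtype. C1q macrophages had 61.8, 148, 77.6 and 45.5 CPM of Tnf, monocytes marked by Chil3 and Vcan had 62.6, 264, 72.1 and 84 CPM, and the remaining clusters of the class had 66.6, 273, 85.3 and 73.1 CPM. The log2 ratio of ADU-S100 to untreated was 1.26 (1.14 to 1.38), 2.07 (1.89 to 2.27) and 2.03 (1.93 to 2.14). The combination was lower than ADU-S100 by a log2 ratio of -1.70, -1.65 and -1.90, all called.

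Neutrophil Tnf did not share this pattern. The level was 490 (446 to 537), 533 (520 to 546), 341 (314 to 369) and 259 (234 to 286) CPM. Untreated and ADU-S100 overlapped, anti-LTβR lay lower and the combination lowest. The combination had 0.487 of the ADU-S100 level (0.438 to 0.538), which was called, and 1 of 5 members tested was called in this comparison where 4.36% of all genes tested were. With the mean of CPM per cell in place of the sum, this log2 ratio was -0.89, and at a depth of 1000 UMIs it was -0.93, both short of 2-fold. Against untreated, the combination had a log2 ratio of -0.92 (-1.12 to -0.72) and was not called, whereas with a minimum of 500 genes and at most 10% mitochondrial UMIs it was -1.07 and past 2-fold. None of 4 members was called in neutrophils of the combination, with a background of 1.42%, and none of 5 with anti-LTβR, with a background of 2.44%.

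Ccl3 neutrophils had more Tnf than mature ones. They stood at 726, 616, 377 and 366 CPM, against 361, 397, 308 and 178 CPM in the mature cells. In mature neutrophils Tnf fell in the combination, with log2 ratios of -1.02 (-1.32 to -0.71) to untreated and -1.15 (-1.40 to -0.91) to ADU-S100. In Ccl3 neutrophils these ratios were -0.99 and -0.75.

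Apart from mast cells and basophils, other cells had less Tnf. T cells had 15.3 (12.2 to 18.9), 28 (21.8 to 35.4), 18.3 (15.1 to 21.9) and 14.8 (11 to 19.6) CPM, from 49 to 118 UMIs. The ADU-S100 interval lay above that of untreated and the combination, with overlap at the edge of anti-LTβR. In T cells, macrophage markers stood at 3.88%, 6.27%, 7.41% and 7.96% of the macrophage level. Neutrophil markers stood at 0.0223%, 0.77%, 0.0306% and 0.136% of the neutrophil level. The part of other cells' RNA in these T cell Tnf values was not tested. DCs had 12.8, 23.7, 4.53 and 32.9 CPM, but a single cell held 32.2% of the untreated and 39% of the combination UMIs, so that no order is read from them. Mast cells and basophils had 269, 244, 197 and 169 CPM from 30, 18, 11 and 20 cells, above macrophages and monocytes in each library. Neutrophil markers there stood at 25.8%, 16.2%, 10.8% and 14.4% of the neutrophil level. The part of neutrophil RNA in these values was not tested. The carcinoma-like cluster had 0, 2.94, 1.65 and 4.39 CPM of Tnf, from at most 7 UMIs.

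**Figure D3:**
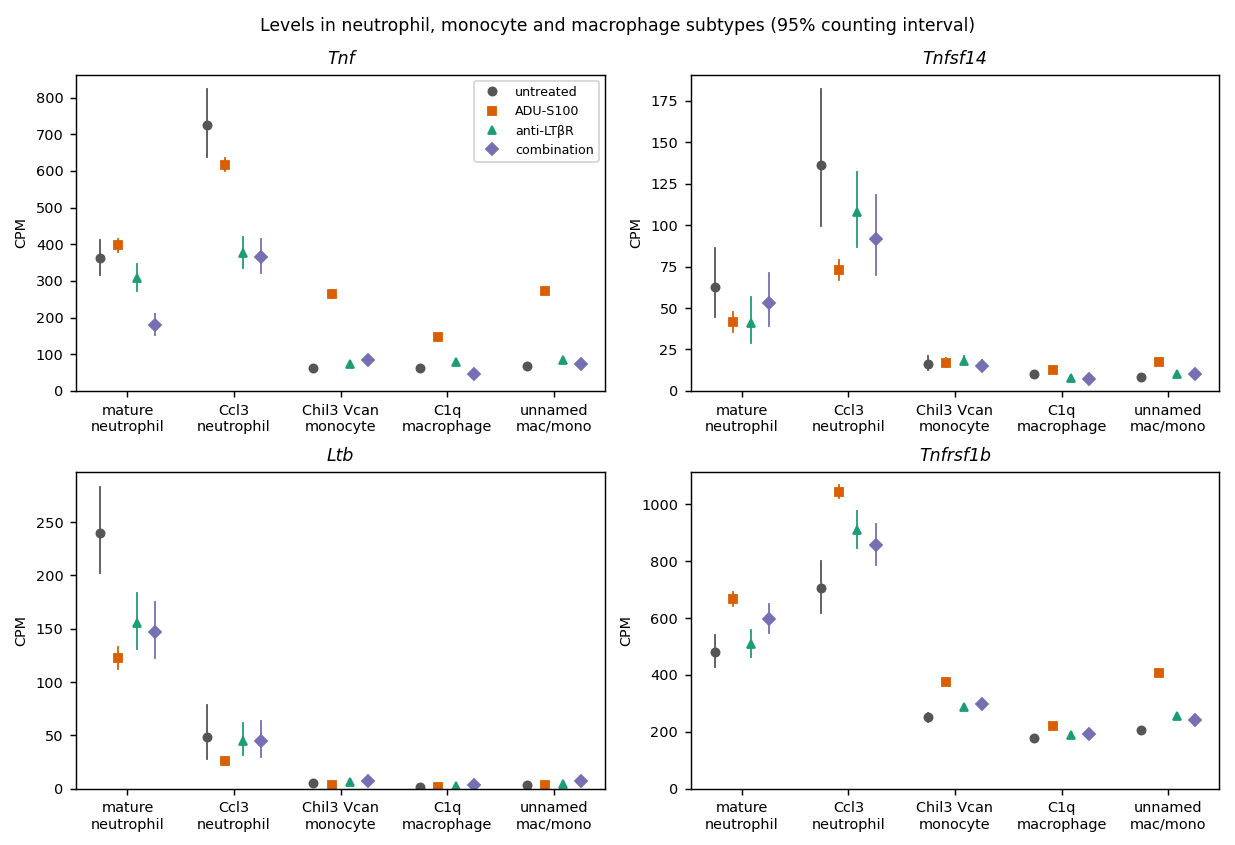
Levels of Tnf, Tnfsf14, Ltb and Tnfrsf1b (CPM, from 0) in subtypes of neutrophils and of macrophages and monocytes, with a point and a 95% counting interval for each library. In each macrophage and monocyte subtype the ADU-S100 value of Tnf lay above the other 3, as with 264 CPM beside 62.6, 72.1 and 84 CPM in Chil3 Vcan monocytes.

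On the receptor side, Ltbr was found in myeloid cells and in the carcinoma-like cluster. Macrophages and monocytes had 41.5 (39.2 to 43.9), 37.5 (35.8 to 39.4), 46.4 (44.3 to 48.6) and 39.8 (37.6 to 42.1) CPM and held 83% to 87.8% of all Ltbr UMIs. The anti-LTβR value was the highest and its interval cleared the other 3, by a log2 ratio to untreated of only 0.16 (0.06 to 0.27). Among the subtypes, Chil3 Vcan monocytes had 51.3, 46.3, 57 and 52.9 CPM and C1q macrophages 45.1, 42.3, 48 and 41.3 CPM.

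Carcinoma-like cells had Ltbr levels close to those of macrophages. The values were 32 (23.1 to 43), 31.6 (22.9 to 42.5), 43 (34 to 53.7) and 49.6 (39.3 to 61.8) CPM, from 43, 43, 78 and 79 UMIs. The combination had a log2 ratio to untreated of 0.63 (0.08 to 1.21), on fewer than 200 UMIs, so that the gene was not tested. At a depth of 1000 UMIs only 6, 2, 5 and 13 Ltbr UMIs were left in the cluster, and the log2 ratio to untreated was -1.90 with ADU-S100, -0.84 with anti-LTβR and 0.16 in the combination. Cells of the cluster with a keratin UMI had 33.5, 39.3, 49.7 and 55.1 CPM, and those without had 24.9, 12.6, 18.2 and 20 CPM from 5 to 7 UMIs. Macrophage markers in the cluster stood at 3.19%, 7.27%, 4.39% and 4.74% of their level in macrophages, while Ltbr stood at 77%, 84.1%, 92.7% and 125% of its level there.

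DCs and neutrophils had less Ltbr. DCs had 21.4, 25.1, 23.3 and 28.6 CPM, all below the carcinoma-like values, and neutrophils had 17.1, 11.6, 22.6 and 21.1 CPM. Lymphocytes had almost none: T cells had 1, 3, 9 and 7 UMIs, in 0.0715% to 0.42% of cells. This is 0.434%, 3.24%, 3% and 5.32% of the macrophage level, no more than the share at which macrophage markers were found in T cells (3.88%, 6.27%, 7.41% and 7.96%), so that no Ltbr expression is read from these few UMIs.

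HVEM transcripts were thinly spread. Tnfrsf14 in macrophages and monocytes was 10.9 (9.73 to 12.1), 9.5 (8.62 to 10.4), 7.01 (6.22 to 7.88) and 7.48 (6.54 to 8.51) CPM. Both libraries with anti-LTβR lay below both without it, with log2 ratios to untreated of -0.63 (-0.87 to -0.40) and -0.54 (-0.79 to -0.29), short of 2-fold. At a depth of 1000 UMIs the gene was found in 1.28%, 0.709%, 0.72% and 0.722% of macrophages and monocytes, from 40 to 55 cells a library, and the ADU-S100 library did not lie above those with anti-LTβR on this measure. DCs had 11.9, 7.61, 9.06 and 6.25 CPM, with overlapping intervals. T cells had 4.5, 3.65, 2.63 and 4.24 CPM and NK cells 6.31, 4.54, 3.27 and 6.54 CPM, with 7 to 25 UMIs a library.

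TNFR1 transcripts differed by less than 2-fold between treatments in the classes given here. Tnfrsf1a in neutrophils was 275 (242 to 311), 271 (262 to 281), 311 (285 to 338) and 323 (295 to 353) CPM. In macrophages and monocytes it was 118 (114 to 122), 136 (133 to 139), 144 (140 to 148) and 141 (137 to 145) CPM. All treated macrophage values lay above untreated, by log2 ratios of 0.21 to 0.29. DCs had 75.5, 111, 91.5 and 102 CPM, and the carcinoma-like cluster had 71.3, 52.9, 58.5 and 86 CPM.

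Subtypes also differed in Tnfrsf1a. Mature neutrophils had 338, 394, 371 and 379 CPM against 160, 196, 245 and 250 CPM in Ccl3 neutrophils. Chil3 Vcan monocytes had 182, 198, 205 and 203 CPM against 111, 127, 122 and 137 CPM in C1q macrophages. T cells had 29, 19, 27.4 and 22.4 CPM and NK cells 23.1, 25.3, 28.7 and 31.8 CPM.

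TNFR2 transcripts were high in neutrophils, T cells and NK cells. Tnfrsf1b in neutrophils was 561 (514 to 611), 901 (884 to 918), 699 (661 to 739) and 709 (667 to 753) CPM. The treated values all lay above untreated, and ADU-S100 above the rest, at a log2 ratio of 0.68 (0.56 to 0.81). Ccl3 neutrophils had 705, 1044, 908 and 858 CPM and mature ones 482, 666, 508 and 597 CPM.

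In macrophages and monocytes, too, Tnfrsf1b was highest with ADU-S100 and lowest untreated. They had 201 (196 to 206), 352 (346 to 357), 245 (240 to 250) and 238 (233 to 244) CPM, with a log2 ratio of 0.81 (0.77 to 0.85) for ADU-S100. At a depth of 1000 UMIs, 18.7%, 29%, 21.8% and 21.5% of these cells had a Tnfrsf1b UMI. By subtype, the ADU-S100 ratio was 0.31 (0.22 to 0.39) in C1q macrophages, 0.59 (0.49 to 0.69) in Chil3 Vcan monocytes and 0.96 (0.90 to 1.03) in the remaining clusters, with no overlap between them. The makeup of the remaining clusters differed: 1 led by Adm and Gpnmb held 322 of their 2124 untreated and 1356 of their 3654 ADU-S100 cells. The part of this makeup in the ratio was not tested.

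T cells went the other way in Tnfrsf1b. They had 448 (430 to 466), 371 (347 to 396), 358 (343 to 373) and 330 (311 to 350) CPM, with every treated library below untreated and log2 ratios of -0.27, -0.32 and -0.44. Regulatory CD4 cells had 760, 471, 625 and 690 CPM, other CD4 cells 417, 343, 288 and 226 CPM, and CD8 cells 429, 335, 334 and 330 CPM. The untreated level was the highest in each of these 3 subsets, and no ratio reached 2-fold. The T cells placed in no subset, 573, 256, 923 and 775 in number, had 420 (389 to 452), 405 (364 to 450), 388 (364 to 414) and 341 (309 to 376) CPM, where only the combination lay below untreated with its whole interval. In γδ T cells the values were 401, 416, 308 and 406 CPM from 19 to 47 UMIs, with intervals that overlapped. NK cells had 321, 375, 296 and 356 CPM and the carcinoma-like cluster 40.1, 69, 56.3 and 65.3 CPM. Cells of this cluster with a keratin UMI had 37.1, 54.9, 45.5 and 66.3 CPM of Tnfrsf1b and those without had 54, 104, 96.2 and 60 CPM, from 13, 41, 37 and 15 UMIs, so that in 3 libraries the cells without a keratin UMI stood higher, the reverse of the order of Ltbr.

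Smaller classes held few UMIs of most members. In pDCs, Tnfrsf1b stood at 39.6 (21.7 to 66.4), 87.5 (59 to 125), 181 (145 to 223) and 151 (86.1 to 245) CPM, from 14, 30, 87 and 16 UMIs, and the anti-LTβR interval lay above untreated and ADU-S100. T cell markers in pDCs stood at 0.936%, 0.267%, 6.42% and 1.15% of the T cell level, highest in the same anti-LTβR library, and their part in the Tnfrsf1b value was not tested. In B cells, Tnfrsf1b stood at 19.2% of the neutrophil level with anti-LTβR and 18.5% in the combination, from 77 and 66 UMIs. The untreated and ADU-S100 B cells had 5 and 0 Tnfrsf1b UMIs. Plasma cells had 29.3, 48.1, 18.1 and 25.8 CPM of Tnfrsf1b and 14.1, 5.12, 2.85 and 7.2 CPM of Ltb. Of the other members, Tnfrsf1a in pDCs had 13, 7, 19 and 4 UMIs. Plasma cells had at most 1 UMI of Lta a library and 2 to 29 UMIs of Tnf.

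**Figure D4:**
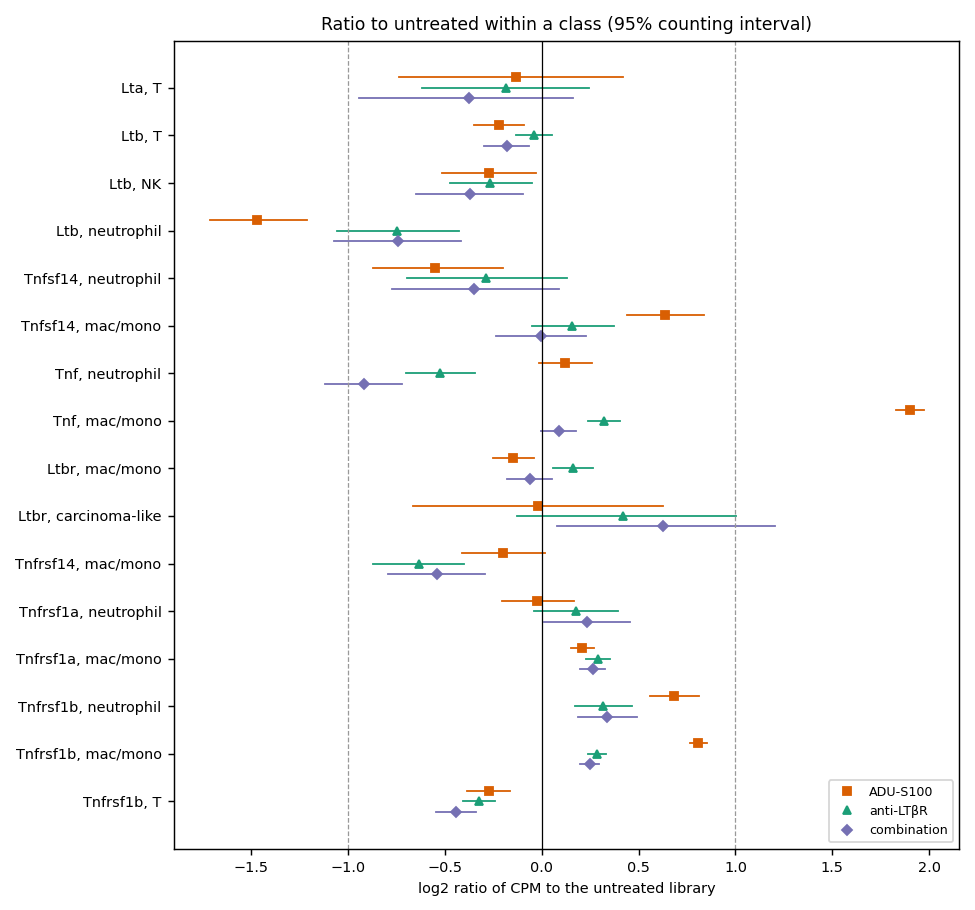
Log2 ratio of the level in each treated library to the untreated library for members in their main classes, with 95% counting intervals and dashed lines at 2-fold. Tnf in macrophages and monocytes with ADU-S100 (1.90) and Ltb in neutrophils with ADU-S100 (-1.47) lie outside the lines with their whole intervals.

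T cells and the carcinoma-like cluster gave no calls among the members. In T cells 0 of 3 members tested were called with ADU-S100, 0 of 4 with anti-LTβR and 0 of 3 in the combination, beside backgrounds of 1.48%, 1.47% and 1.82%. In the carcinoma-like cluster no member was deep enough for a test with ADU-S100, and 0 of 1 was called with anti-LTβR and in the combination, beside backgrounds of 2.93%, 1.42% and 2.43%. With so few members tested in each class, counts of 0 to 2 calls do not set the members apart from the background. All 3 comparisons with untreated share that library, so that a high or low untreated value moves all of them.

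Pooled over the leukocytes, the levels also moved with the cell classes. Pooled Tnf was 57.8, 262, 66.2 and 59.4 CPM. With the class shares of UMIs held at the untreated ones, Tnf was 180 CPM with ADU-S100, and with the class levels held at the untreated ones and the shares left as measured it was 135 CPM. Pooled Ltb was 57.5, 29.3, 52.1 and 39.4 CPM. For ADU-S100 it was 47.1 CPM with untreated shares and 52.6 CPM with untreated levels, so that neither change by itself gave the measured value. For the combination these were 52.4 and 42.2 CPM, with T cells making up 18.6%, 4.47%, 15.1% and 11.4% of kept cells. Neutrophils held 6.41% of the Ltb UMIs untreated and 39% with ADU-S100, where T cells held 69.7% and 34.2%. Pooled Tnfrsf1b was 229, 435, 247 and 234 CPM and pooled Tnfsf14 was 11, 23, 12 and 10.5 CPM.

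**Figure D5:**
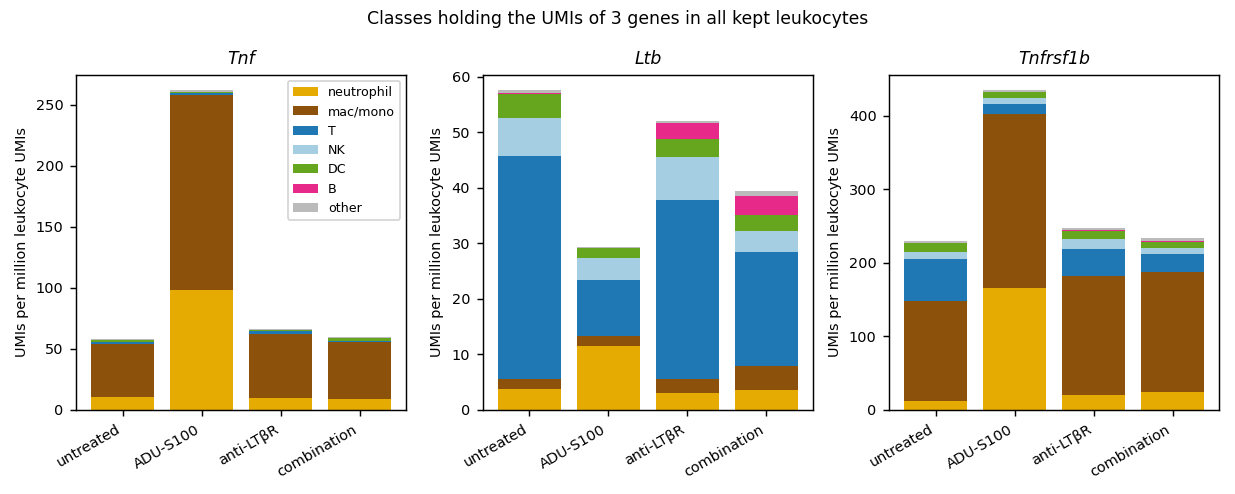
Level of Tnf, Ltb and Tnfrsf1b over all kept leukocytes (CPM), stacked by the class that held them, in each library. With ADU-S100 the Tnf bar reached 262, held by macrophages and monocytes and by neutrophils, while the T cell part of the Ltb bar was at its smallest.

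Genes that act around the network were read in 5 lists. The lists were chosen with earlier results of these data known, so that their counts and medians are a description and not a test. Of 18 TNF and LTβR target genes, 16 were tested in macrophages and monocytes with ADU-S100 and 5 rose, where 5.12% of all genes tested were called in either direction, with a median log2 ratio of 0.71 beside -0.21 over all genes tested. These were the neutrophil chemokines Cxcl1 (3.91) and Cxcl2 (1.98), the cytokine Il6 (2.28), and the NF-κB inhibitors Nfkbia (1.56) and Tnfaip3 (1.14), the last named after its value was seen. Of 20 receptor adaptors and signaling genes tested, 3 rose, namely Traf1 (1.86), Tnip1 (1.17) and Cflar (1.06), an inhibitor of death receptor signaling, and Traf5 fell (-1.02). Among other ligands of the family, 7 of 13 were tested: Tnfsf9, a costimulatory ligand, rose (1.31) and Tnfsf10 (TRAIL), a death ligand, fell (-1.10). None of 10 other family receptors tested and none of 7 genes of TNF processing and mRNA decay tested was called.

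With anti-LTβR, 2 of 15 target genes tested in macrophages and monocytes rose, Il6 (1.88) and Cxcl1 (1.86), and the same genes were called in the combination at 1.38 and 1.61, where 1.43% and 1.61% of all genes tested were called. Traf1 was also called with both, at 1.20 and 1.40. The median of the target genes was 0.38 with anti-LTβR and 0.57 in the combination, beside -0.05 and -0.09 over all genes. Against ADU-S100, 3 of 15 target genes were called lower in the combination, namely Cxcl1 (-2.30), the monocyte chemokine Ccl2 (-1.30) and Cxcl2 (-1.11), and so was Tnfsf9 (-1.15) among 7 other ligands, where 3.14% of all genes tested were called. Tnfsf8 fell with anti-LTβR (-1.03), and Tnfrsf18 was higher in the combination than with ADU-S100 (1.02).

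Listed genes were also called in neutrophils, T cells and the carcinoma-like cluster, where fewer genes were deep enough for a test. In neutrophils with ADU-S100, Tnfsf9 was higher (1.16, from 8 untreated UMIs), Cxcl1 was higher (2.62, from 2 untreated UMIs) and Relt, a receptor of the family, was lower (-1.18). These were 1 of 2 other ligands, 1 of 13 target genes and 1 of 3 other receptors tested, where 6.52% of all genes tested were called. Tnfsf9 and Cxcl1 met the minimum of 200 UMIs only through the ADU-S100 library, which held 248 and 200 of their UMIs. Their calls and counts are therefore a description only. Cxcl1 in neutrophils was lower in the combination than with ADU-S100 (-1.73, from 7 UMIs), as 1 of 13 target genes tested where 4.36% of all genes were called. Here, too, Cxcl1 met the minimum only through the 200 UMIs of the ADU-S100 library, so that this call is a description only. In T cells, Tnfsf11 (RANKL), a ligand that acts in bone and lymph node development, rose with anti-LTβR (1.26) and in the combination (1.17), and Tnfrsf4 (OX40), a costimulatory receptor, fell in the combination (-1.10). The T cell clusters moved alongside: a cluster led by Foxp3 held 246 of 1399 untreated and 111 of 1666 combination T cells, and a cluster with Lef1 and Tcf7 among its leading genes held 267 and 781. With anti-LTβR these clusters held 192 and 888 of 1998 T cells. A cluster with Tnfsf11 itself among its leading genes, along with Il17a and Cd40lg, held 348 of the untreated, 550 of the anti-LTβR and 320 of the combination T cells. The part of this makeup in the Tnfrsf4 and Tnfsf11 values was not tested. The calls were 1 of 6 and 1 of 5 other ligands and 1 of 7 other receptors tested, beside 1.47% of all genes called with anti-LTβR and 1.82% in the combination. Cxcl2 in T cells was called with ADU-S100 (2.49) and in the combination (1.03). The former level stood at 0.864% of the neutrophil level, beside neutrophil markers at 0.77%, and the latter at 0.426%, beside 0.136%. The part of other cells' RNA in these Cxcl2 values was not tested. In the carcinoma-like cluster Cxcl10, a chemokine for activated T cells, stood at 20.1, 41.1, 117 and 181 CPM and rose with anti-LTβR (2.53) and in the combination (3.15). Cxcl10 had 27 UMIs untreated, 213 with anti-LTβR and 288 in the combination. It met the minimum of 200 only through the treated libraries, so that its calls are a description only. Zfp36, which speeds the decay of Tnf mRNA, was called with ADU-S100 (1.23) at 330 CPM beside 140 CPM untreated. Macrophages and monocytes had 308, 351, 362 and 271 CPM of Cxcl10 and 1381, 1695, 1545 and 1457 CPM of Zfp36, and their markers in the cluster were at the shares given above for Ltbr, highest with ADU-S100. The part of their RNA in these values was not tested. Cxcl2 was called in the cluster with ADU-S100 (5.15) at 1.09% of the neutrophil level, beside neutrophil markers at 1.34%, and in the combination (3.29) at 0.404%, beside 0.2%. It had 19 UMIs untreated, 700 with ADU-S100 and 225 in the combination, and met the minimum of 200 only through the treated libraries. These calls are a description only, and the part of neutrophil RNA in them was not tested. Of the target genes tested in this cluster, 1 of 7 was called with ADU-S100, 1 of 7 with anti-LTβR and 2 of 8 in the combination, and of the genes of TNF processing and mRNA decay 1 of 6 with ADU-S100, beside 2.93%, 1.42% and 2.43% of all genes tested.

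Ligand and receptor levels were compared across the 33 sums of class and library with at least 50 cells. These points share libraries and depth, so that correlations are given as a description only. Lta and Ltb were alike (Pearson's r = 0.794), as were Tnfsf14 and Tnfrsf1b (0.863), Tnfsf14 and Tnf (0.766) and Ltbr and Tnfrsf1a (0.754). Ltbr ran opposite to Lta (-0.709) and Ltb (-0.619), which encode the ligand of its product.

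Among 7047 other genes, the 3 most like each member in the same 33 sums were taken by the highest r. For Lta these were Arhgef1 (0.910), Zbtb32 (0.906) and Nfatc3 (0.903), for Ltb Rhof (0.958), Zfp831 (0.937) and Acap1 (0.907). For Tnfsf14 they were Ppp1r3b (0.936), Sephs2 (0.907) and Cln3 (0.876), and for Tnf Smox (0.922), Slc16a3 (0.912) and Glrx (0.904). For Ltbr they were Ifitm3 (0.949), Cd63 (0.945) and Anxa3 (0.928), and for Tnfrsf14 Fbxo34 (0.771), M6pr (0.764) and Rapgef2 (0.760). For Tnfrsf1a they were Nfe2l2 (0.957), Oasl2 (0.932) and Ifitm2 (0.924), and for Tnfrsf1b Nherf1 (0.954), Tnfaip3 (0.953) and Dgat1 (0.931). Tnfrsf14 had the weakest likeness of the 8, along with few UMIs.

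Cells that held both partners of the lymphotoxin trimer were few. Of 70, 29, 67 and 37 T cells with an Lta UMI, 47, 26, 49 and 19 also had Ltb, which is 67.1%, 89.7%, 73.1% and 51.4%, beside 51%, 50.4%, 49% and 35.7% of all T cells. The Lta-positive cells were deeper, with medians of 4191, 5582, 3466 and 2336 UMIs against 3365, 3646, 2860 and 1655, and the part of depth in the higher share was not tested. Of macrophages and monocytes with a Tnf UMI, 7.62%, 12%, 5.21% and 2.92% also had Tnfsf14, beside 6.41%, 9.29%, 4.91% and 3.1% of all cells of the class. In neutrophils the shares were 13.5%, 13%, 15.8% and 13.5%, beside 11.9%, 11.1%, 11.4% and 7.12%.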

How the data were processed

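Counts per gene and cell were taken as the authors deposited them: UMI counts in 1 matrix for each of the 4 libraries, made with Cell Ranger 8.0.1 per the file headers, whereas the submitters' processing notes and the study's methods name version 7.1.0 and build mm10. The labels name a GEM-X 5′ v3 kit and the methods a Next GEM 5′ v2 kit. The study's methods describe a repeat of the experiment, which was not analysed here. Libraries held 62248447 (untreated), 85855398 (ADU-S100), 73704334 (anti-LTβR) and 52109958 (combination) UMIs in 8730, 15404, 14634 and 16322 cells.

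Cells with 300 to 5000 genes and at most 6% mitochondrial UMIs were kept, the limits of the study's methods. Doublets were scored by simulation, and 305, 949, 857 and 1066 cells were removed at a rate of 0.4% per 1000 cells, since the automatic threshold marked only 0, 0, 1 and 0. The kept cells were clustered with scanpy 1.11.5 and igraph 0.11.9 (Python 3.11.15) on 2000 variable genes without the 8 members or the listed genes, 30 components, 20 neighbours and Leiden resolution 1, which gave 29 clusters. A class needed 3 of its markers at 2-fold and in 10% of cells, with its leading genes checked among the top 10. How macrophage and monocyte clusters were named was adjusted after the data were seen, and 1 cluster of shallow cells stayed unnamed. T cells were split by UMIs of Cd4, Cd8, Foxp3 and γδ receptor genes.

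UMIs were summed by class and library and given as CPM with exact Poisson intervals. Shares of cells have exact Clopper-Pearson intervals in the underlying tables, and ratios have exact binomial intervals (scipy 1.17.1, numpy 2.4.6), with 0.5 UMIs added to each sum for the point value. PCR and sampling of animals are not in these intervals, which cover counting error only at 95%. With 1 library a group there is no replicate check and no test. A ratio was called at 2-fold with an interval off equality among genes with 200 UMIs in both libraries, and percentages called over all such genes are given as background. The interval and call were tested on simulated data. Shares of cells were repeated with each cell thinned to 1000 UMIs, leaving out shallower cells, which were 2.66% to 46.5% of a main class. In summed cells, fewer expressing cells and less RNA per cell can be told apart only by such shares. The members and gene lists were chosen with earlier results of these data known. Named genes were all 8 members, the called genes of each list (the 4 with the widest ratios where more were called) and the 3 genes most alike by Pearson's r of log2(CPM + 1). Promoters came from RefSeq. Alternatives tried were a depth of 1000 UMIs, no doublet removal, other limits on genes (500) and mitochondria (10%), Leiden resolution 2, classes set per cell by markers, the mean of CPM per cell, totals without immunoglobulin, ribosomal and mitochondrial genes, leaving out the cell with most UMIs of the gene, and a minimum of 50 UMIs.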

Additional observations from a re-analysis of the deposited data

Results flagged for a closer look

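Members in 5 pairings of gene and class moved in opposite directions with anti-LTβR given alone and given on top of ADU-S100, each interval leaving out equality. These differences rest on 1 library a group and the difference between the 2 ratios was not tested. Tnf in macrophages and monocytes had a log2 ratio of 0.32 for anti-LTβR against untreated and -1.81 for the combination against ADU-S100. Ltb in neutrophils had -0.74 and 0.72, the reverse order. Tnfrsf1b had 0.29 and -0.56 in macrophages and monocytes, 0.32 and -0.34 in neutrophils, and 0.25 and -0.25 in DCs. In all 5, the combination lay nearer to the anti-LTβR library than to the ADU-S100 library.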

How the results depend on the processing

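No called ratio of a member changed sign under any of the 8 alternatives, while small ratios that were not called did. Of 6 called ratios, 2 fell short of 2-fold: Ltb in macrophages and monocytes, combination against untreated, at 0.82 with the mean of CPM per cell (0.82 to 1.52 over the alternatives), and Tnf in neutrophils, combination against ADU-S100, at -0.89 with that mean and -0.93 at a depth of 1000 UMIs. Tnf in neutrophils, combination against untreated, passed 2-fold at -1.07 with the other limits on genes and mitochondria. Of the main values, 235 recomputed ones stayed the same and 35 moved; of the single values named among many, 140 stayed and 52 moved. Tnf in macrophages and monocytes stayed between 1.83 and 1.92 for ADU-S100 and between -1.82 and -1.66 for the combination against ADU-S100, and Ltb in neutrophils with ADU-S100 between -1.65 and -1.40. At a depth of 1000 UMIs, the log2 ratio of Lta in T cells was 0.77 with ADU-S100, 0.56 with anti-LTβR and 0.30 in the combination, that of Ltb in T cells 0.28 with anti-LTβR, 0.10 in the combination and 0.24 for combination against ADU-S100, that of Ltbr in macrophages and monocytes -0.28 with ADU-S100 and 0.23 for combination against ADU-S100, that of Tnfrsf14 there -0.88, -0.86 and 0.021 (ADU-S100, combination, combination against ADU-S100), and that of Tnfrsf1b in neutrophils 0.50 with anti-LTβR. Without doublet removal Ltb in T cells was -0.30 in the combination. With the mean of CPM per cell, combination against ADU-S100 gave 0.21 for Ltb in T cells, 0.20 for Ltbr in macrophages and monocytes and -0.89 for Tnf in neutrophils (no longer 2-fold), and Tnfrsf14 in macrophages and monocytes was -0.45 with ADU-S100 and -0.96 with anti-LTβR. With classes set per cell, Tnf in neutrophils was 0.31 with ADU-S100 and -1.21 for combination against ADU-S100, and Tnfrsf1b there -0.50 for the latter. The cause of these moves was not tested. With a minimum of 50 UMIs more genes were tested and called, in the order ADU-S100, anti-LTβR and combination against untreated: 340, 301 and 320 in T cells (main 90, 109 and 117), 1030, 382 and 415 in macrophages and monocytes (538, 151 and 165), 809, 190 and 129 in neutrophils (285, 46 and 25) and 385, 285 and 334 in carcinoma-like cells (82, 46 and 74), and for combination against ADU-S100 726 in macrophages and monocytes (329) and 601 in neutrophils (194). No paired analysis was possible because each group has 1 library. Depth limits Lta, Tnfrsf14 and all B cell values of the untreated and ADU-S100 libraries.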
